A study of Mus musculus with 26 samples.

Results

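The nuclear-encoded respiratory chain genes were taken as every protein-coding gene whose mouse symbol names a subunit of complexes I to V: the Nduf a, b, c, s and v series, Sdha to Sdhd, the Uqcr genes, Cyc1, the Cox4 to Cox8 genes and the Atp5 genes. The rule took 85 of the 27502 rows of the count table, 37 for complex I, 4 for complex II, 9 for complex III, 18 for complex IV and 17 for complex V. Pseudogenes and the Ndufaf assembly factors were left out. Ndufa4 was counted with complex I by its name, although its product is known to associate with complex IV. The rule used symbols and no measured value.

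The respiratory chain lies in the inner mitochondrial membrane. Complexes I and II take electrons from NADH and succinate, complex III passes them to cytochrome c, complex IV hands them to oxygen, and complex V uses the resulting proton gradient to make ATP. Most subunits are encoded in the nucleus and translated in the cytosol, whereas a small set is encoded by mitochondrial DNA. Neurons are known for their dependence on oxidative phosphorylation, and astrocytes and oligodendrocytes for a larger share of glycolysis.

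The mice were 6 to 12 weeks old, whole brains were used, and each animal carried one of 3 transgenes for EGFP fused to the ribosomal protein Rpl10a. The fusion was expressed under Snap25 in neurons (Tg(Snap25-EGFP/Rpl10a)JD362Htz), under Aldh1l1 in astrocytes (Tg(Aldh1l1-EGFP/Rpl10a)JD130Htz) or under Cnp in oligodendrocytes (Tg(Cnp-EGFP/Rpl10a)JD368Htz), all in B6.FVB mice, so that nuclei could be sorted by fluorescence before RNA sequencing. Each line gave 4 libraries of sorted nuclei and 4 of presort nuclei, that is, all nuclei before sorting, with 2 female and 2 male libraries in each of these 6 groups. The seventh group was cytoplasmic RNA, with 1 male library from the Aldh1l1 line and 1 female library from the Cnp line. No group lacked the transgene, and each sorted population holds whatever nuclei the promoter marked. Each sorted library came from its own mouse and presort RNA was kept from those mice, but the labels do not say which sorted and presort libraries shared an animal, so the fits treated them as separate samples.

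Library totals ran from 134357 to 4461568 counts, and most presort libraries were shallow, with a median of 260451 counts. The defining markers followed the labels: the summed level of 14 neuronal markers was 8136 to 11275 CPM (the count scaled to the library total in the usual way) in sorted neuron nuclei and at most 1888 CPM in the other sorted nuclei. The 12 astrocyte markers reached 22165 to 26579 CPM in sorted astrocyte nuclei, and the 12 oligodendrocyte markers 29183 to 38884 CPM in sorted oligodendrocyte nuclei. Markers of choroid plexus and ependymal cells summed to 604 to 7086 CPM in sorted astrocyte nuclei. In the other sorted nuclei they reached at most 168 CPM. The 6 markers of cerebellar granule cells summed to 8998 to 20326 CPM in sorted neuron nuclei and at most 511 CPM in the other sorted nuclei. These 6 summed to 3882 to 12375 CPM in presort nuclei and 720 to 877 CPM in cytoplasm. The part of either set in any result was not tested. Sorted oligodendrocyte library 36 stood apart. It detected 7674 genes, against 16223 to 16575 in the other sorted oligodendrocyte libraries, 40 of the 85 members against 77 to 80, and no count of the GFP transcript. Comparisons that rest on sorted oligodendrocytes are therefore given with and without it. Sorted astrocyte library 30 was the shallowest library, where 3 counts equal 22.3 CPM.

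The 100 bases before the RefSeq transcription start are shown for 4 members, and no comparison below used these sequences. The 4 members were higher in sorted neuron than in sorted oligodendrocyte nuclei with all libraries and also without library 36. They are Ndufc2, an accessory subunit of complex I, Atp5g1, which encodes the c subunit of the complex V rotor, Atp5h, a subunit of the complex V stalk, and Atp5k, a small membrane subunit of complex V. Each sequence is on the gene's strand, and capitals mark matches to 3 core motifs of factors known to act on respiratory genes, on either strand: GCGCATGC for NRF1, CCGGAAG for ETS factors such as GABP, and AANATGGCG for YY1.
Ndufc2, chr7:97399903-97400002, plus strand, GRCm38.p6: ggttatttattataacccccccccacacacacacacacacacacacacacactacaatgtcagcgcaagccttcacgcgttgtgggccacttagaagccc
Atp5g1, chr11:96075632-96075731, minus strand, GRCm38.p6: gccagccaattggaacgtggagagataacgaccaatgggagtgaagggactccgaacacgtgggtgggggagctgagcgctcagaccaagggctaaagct
Atp5h, chr11:115419920-115420019, minus strand, GRCm38.p6: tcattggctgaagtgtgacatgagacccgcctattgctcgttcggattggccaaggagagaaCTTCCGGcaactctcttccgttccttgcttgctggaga
Atp5k, chr5:108434400-108434499, minus strand, GRCm38.p6: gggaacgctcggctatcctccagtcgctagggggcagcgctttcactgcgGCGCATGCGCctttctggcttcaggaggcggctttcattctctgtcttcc

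Over the full window of 300 bases (250 before and 50 after the start), 66 of the 85 members had a RefSeq promoter. The NRF1 core was found in 10 of these 66 (15.2%) and in 3.81% of the 16152 protein-coding genes with a promoter. The ETS core was found in 15 members (22.7%) and in 12.5% of all. The YY1 core was found in 8 members (12.1%) and in 3.52% of all, and its 8 members belonged to complexes I (6) and V (2). In the 100 bases shown, Atp5k carried the NRF1 core, read on both strands as 2 overlapping matches, and Atp5h carried the ETS core. The windows of Ndufc2 and Atp5g1 held none of these letters. These matches describe the sequences and are not evidence of binding.

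The members together took a small share of nuclear RNA, and that share was highest in sorted neurons among the sorted nuclei. In sorted neuron nuclei the 85 members took 0.346%, 0.415%, 0.360% and 0.416% of the counts in replicates 2, 4, 26 and 28. In sorted astrocyte nuclei the shares were 0.178%, 0.328%, 0.252% and 0.267% in replicates 6, 8, 30 and 32. In sorted oligodendrocyte nuclei they were 0.208%, 0.136%, 0.195% and 0.260% in replicates 10, 12, 34 and 36. All 4 neuron libraries lay above every library of the other sorted types, while astrocyte and oligodendrocyte libraries overlapped, with and without library 36. The 12 presort libraries ran from 0.218% to 0.384% with a median of 0.302%, and the 3 lines overlapped. The 2 cytoplasmic libraries, at 0.861% and 1.79%, lay above all nuclear libraries but differed from each other by more than any replicates of a nuclear group. These are shares of each library, so fewer transcribing cells and less RNA per cell cannot be told apart.

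**Figure D1:**
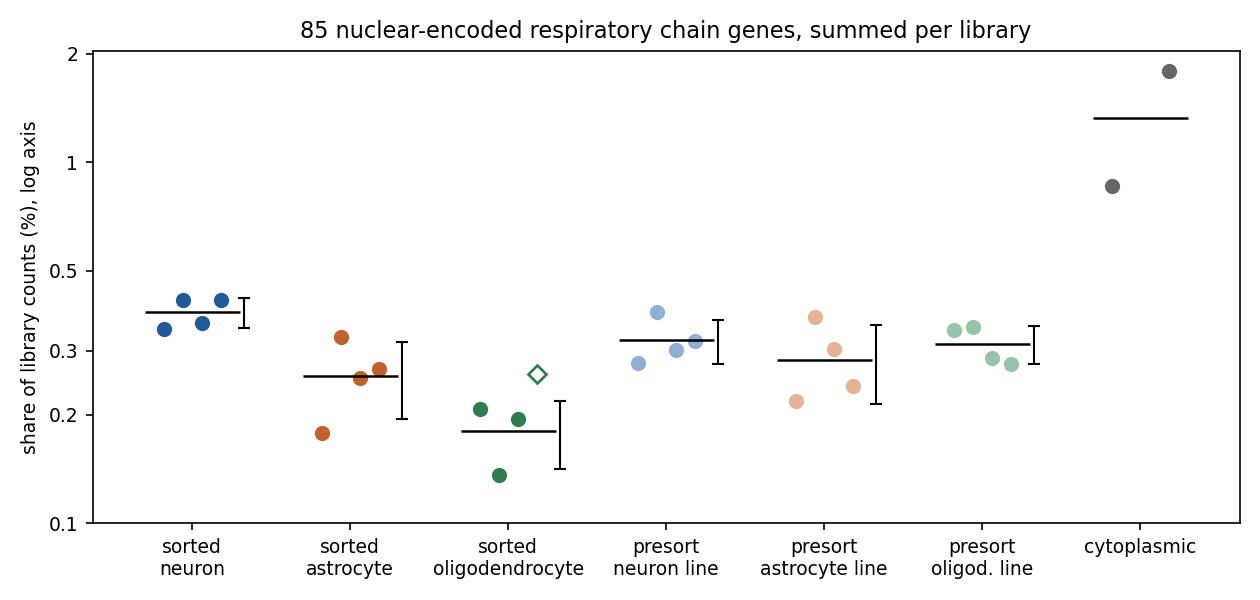
Share of each library's counts taken by the 85 members (percent, log axis), by group, 1 point per library; black lines are means and bars SD, both without sorted oligodendrocyte library 36 (open diamond), with no SD for the 2 cytoplasmic libraries. The sorted neuron libraries sit at 0.346% to 0.416%, above the other sorted libraries, and the cytoplasmic ones at 0.861% and 1.79%.

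Ribosomal protein genes, a second large set of short housekeeping genes, showed the same order. Their 83 genes took 0.342% to 0.424% in sorted neuron, 0.166% to 0.298% in sorted astrocyte and 0.105% to 0.226% in sorted oligodendrocyte nuclei. The order is therefore not shown to be particular to the respiratory chain. The 13 mitochondrially encoded subunits did not follow it. They took 0.0353% and 0.0222% of counts in the male sorted neuron libraries and 0.18% and 0.171% in the female ones. The other sorted libraries ran from 0.0382% to 0.339%, so the sorted types overlapped.

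Per kilobase of exon, the members differed widely among themselves. Averaged over the 12 sorted libraries, the highest levels were those of Uqcrh, Atp5b and Cox8a at 85.9, 84.4 and 83.9 CPM per kb, and Uqcrh stood at 23.4 CPM per kb without library 36. Atp5b, the catalytic beta subunit of complex V, stood at 119 in sorted neuron, 70.5 in sorted astrocyte and 63.7 CPM per kb in sorted oligodendrocyte nuclei (59.0 without library 36). Cox8a, the common isoform of a small complex IV subunit, stood at 143, 69.7 and 39.3 CPM per kb (52.5 in oligodendrocytes without library 36). The highest members of complex I were Ndufc2 (43.6 CPM per kb over the sorted libraries) and Ndufa13 (40.1), a subunit also called Grim19, and those of complex II were Sdha (39.8), the flavoprotein, and Sdhd (23.5), a membrane anchor. Of complex III, Uqcr10, a small accessory subunit, followed Uqcrh at 67.4 CPM per kb. Without library 36, Uqcr10 (60.1 CPM per kb) and Cyc1 (24.6) lay above Uqcrh. In complex V, Atp5a1, the alpha subunit, followed Atp5b at 59.3 CPM per kb.

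Isoforms that are known from heart, skeletal muscle, testis or hypoxic tissue had few counts. The sums over all 26 libraries that follow weigh deep libraries, the cytoplasmic ones among them, more than shallow ones. Cox8c, a testis isoform, had 0 counts and Cox7b2 had 2. Cox7a1, the heart and muscle isoform, had 9 counts against 825 for Cox7a2. Cox4i2, the lung isoform, had 13 counts against 8445 for Cox4i1, and Cox8b had 18 against 4907 for Cox8a. Ndufa4l2, which is known to be induced by hypoxia, had 26 counts against 909 for Ndufa4, of which 690 were cytoplasmic. In presort nuclei the 2 were closer, with 9 and 34 counts in the astrocyte line and 5 and 7 in the oligodendrocyte line. Cox6a2 had 79 counts against 4691 for Cox6a1. Cox6b2, the testis isoform of a subunit that joins complex IV dimers, had 87.5 counts per kb over the 4 sorted astrocyte libraries and Cox6b1 94.6 (97 and 67 counts). In sorted neurons these were 19.0 and 168 counts per kb (21 and 119 counts). In sorted oligodendrocytes without library 36 they were 36.1 and 49.4 counts per kb (40 and 35 counts), and library 36 itself had 0 counts of Cox6b2 and 101 of Cox6b1. Of the 3 genes for the identical c subunit of complex V, Atp5g1 had the largest mean share of per-kilobase level in every group, from 51.9% in cytoplasm to 67.1% ± 4.26 (SD, n = 4) in sorted neurons; in sorted oligodendrocytes it had 45.2% ± 8.03 (SD, n = 3) without library 36. Atp5g3 took 17.1% ± 8.79 (SD, n = 4) in sorted neurons and 57.5% and 20.6% in cytoplasmic replicates 1 and 2. In cytoplasmic replicate 1 Atp5g3 was above Atp5g1 per kilobase alone, since it held 38.2% of the counts of the 3 genes and Atp5g1 60.7%.

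Between sorted neuron and sorted oligodendrocyte nuclei, the share of members called higher in neurons was close to that of all genes with all libraries and above it without library 36. Of 76 members that passed the filter on low counts, 9 (11.8%) were higher and 1 lower in neurons at an edgeR adjusted p under 0.05 (quasi-likelihood F test, Benjamini-Hochberg over all genes). Among all 13029 genes tested, 10.7% were higher and 12.4% lower. Without library 36, 21 of 76 members (27.6%) were higher and 0 lower, against 16.7% of all genes higher, and 35 members had an unadjusted p under 0.05. DESeq2 on all libraries called 24 of 71 higher and 0 lower, where 18.4% of all genes were higher. With library 36 kept, leaving out any other single neuron or oligodendrocyte library lowered the count of members higher: to 2 without neuron replicate 28 or oligodendrocyte replicate 12, to 3 without neuron replicate 4 or 26 or oligodendrocyte replicate 34, to 5 without neuron replicate 2 and to 6 without oligodendrocyte replicate 10. In these fits 8.19% to 11.3% of all genes were higher. The median log2 fold change of the members was 0.99, and 0.91 without library 36, against 0.16 and 0.02 for all genes. The 21 members comprised 7 of complex I, 4 of complex III, 5 of complex IV and 5 of complex V, and none of the 4 complex II members.

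Of the members called higher in neurons with all libraries, Ndufc2 had the largest fold change. It had 53.9, 51.8, 42.8 and 46.9 CPM in sorted neuron replicates 2, 4, 26 and 28. It had 10.9, 5.72, 8.94 and 0 CPM in sorted oligodendrocyte replicates 10, 12, 34 and 36. Every neuron library was above every oligodendrocyte library, and the 0 came from library 36. The log2 fold change was 2.61 ± 0.67 (SE; edgeR adjusted p = 0.00961), and 2.23 ± 0.38 without library 36 (adjusted p = 0.000189).

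Cox4i1, the ubiquitous isoform of a complex IV subunit that takes part in its regulation by ATP, had 168, 267, 173 and 231 CPM in the sorted neuron replicates in that order. Sorted oligodendrocyte replicates had 67.9, 28.6, 45.1 and 1.25 CPM, all below the neurons. The log2 fold change was 2.27 ± 0.65 (edgeR adjusted p = 0.0175), and 1.87 ± 0.37 without library 36 (adjusted p = 0.00063).

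Atp5g1 had 157, 227, 177 and 166 CPM in sorted neurons. It had 73.3, 39.1, 52.5 and 56.2 CPM in sorted oligodendrocytes, where library 36 lay within the others. It was higher in neurons by a log2 fold change of 1.28 ± 0.39 (edgeR adjusted p = 0.0254), and of 1.44 ± 0.30 without library 36 (adjusted p = 0.00105). Its call was lost in 8 of the 16 other settings tried. Atp5h had 59.1 to 91.9 CPM in neurons and 8.11 to 26.6 CPM in oligodendrocytes, with no overlap.

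Ndufa4 was expressed at a low level, with 9.42, 5.85, 13.3 and 16.0 CPM in sorted neurons and 2.05, 0.477, 4.10 and 0.624 CPM in sorted oligodendrocytes. The groups did not overlap, and its log2 fold change was 2.20 ± 0.67 (edgeR adjusted p = 0.025), and 2.03 ± 0.62 without library 36 (adjusted p = 0.0167). The other members called with and without library 36 were Ndufa13 and Ndufa2 of complex I, Cox7c, a small complex IV subunit, and Atp5h and Atp5k of complex V, with log2 fold changes of 1.31 to 2.55 on all libraries. The 2.55 was that of Atp5k, which had few counts. It had 7, 16, 12 and 37 counts in sorted neuron replicates 2, 4, 26 and 28. In sorted oligodendrocyte replicates 10, 12, 34 and 36 it had 5, 2, 2 and 0 counts. Ndufa13, Ndufa2, Cox7c, Atp5h and Atp5k each lost the call in 7 to 9 of the 15 or 16 other settings tried. Ndufa4 lost its call in 6 of 16 settings, and Ndufc2 and Cox4i1 in 1 of 16 each. In Ndufa13, 30% of exon bases also lie in Tssk6 on the other strand, and whether counting used strand is not given in the sources used here.

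**Figure D2:**
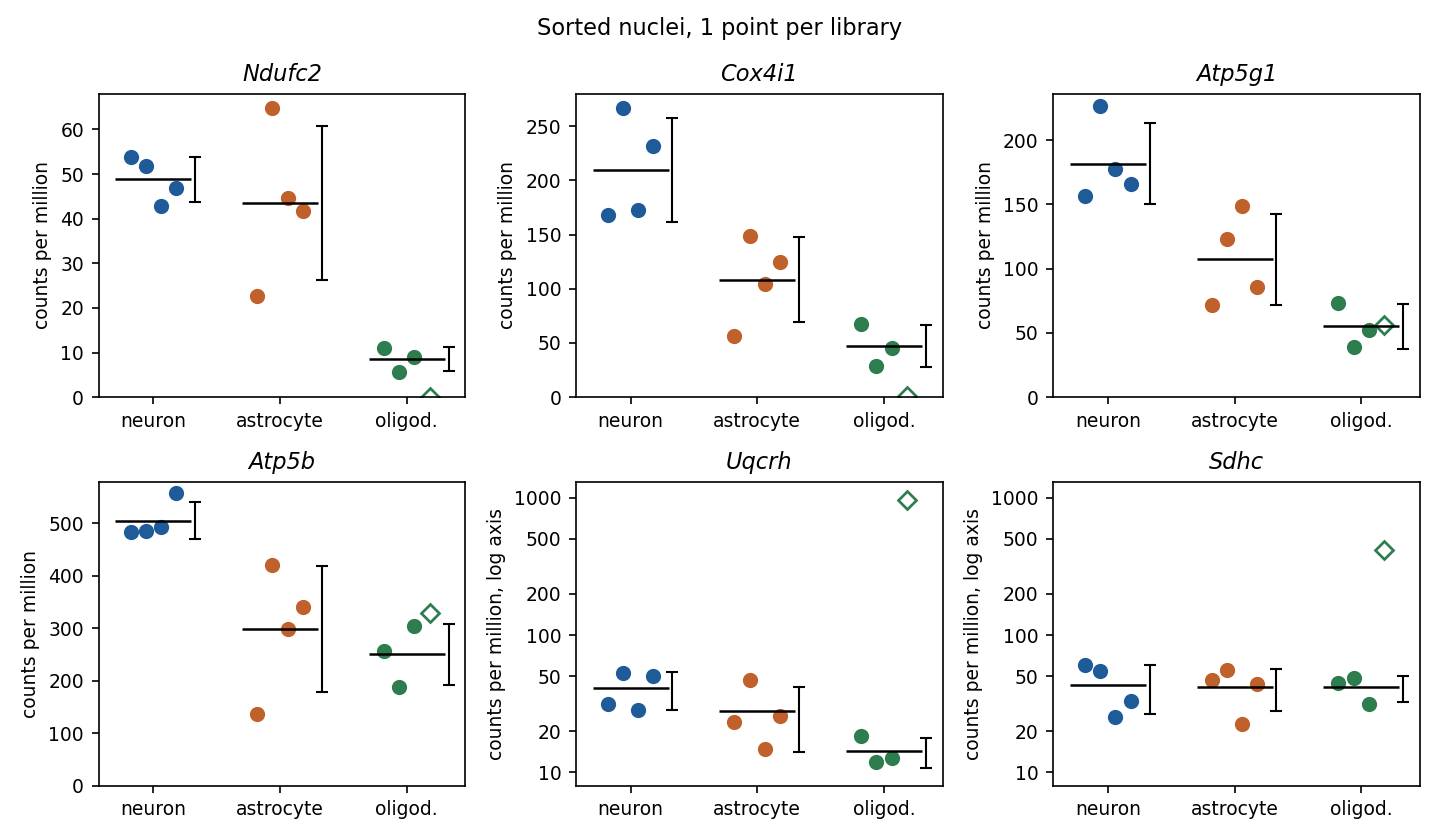
Levels of 6 members in sorted nuclei (CPM; log axis for Uqcrh and Sdhc), 1 point per library, by cell type; black lines are means and bars SD, both without sorted oligodendrocyte library 36 (open diamond). Ndufc2, Cox4i1, Atp5g1 and Atp5b are higher in every neuron library than in every oligodendrocyte library; Uqcrh and Sdhc are far higher in library 36 than in any other.

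Calls in the other direction did not hold without library 36. Sdhc, a membrane anchor of complex II, had 60.3, 55.1, 25.3 and 33.2 CPM in sorted neurons and 44.7, 48.6, 31.7 and 413 CPM in sorted oligodendrocytes, and the groups overlapped. Its call as lower in neurons (log2 fold change -2.35 ± 0.82, edgeR adjusted p = 0.0466) was lost without library 36 (-0.22, adjusted p = 0.688). It was also lost without any single neuron library (adjusted p 0.068 to 0.123) and with sex as a covariate (adjusted p = 0.115). Uqcrh, the hinge subunit of complex III, had 31.6, 53.0, 28.6 and 50.3 CPM in neurons and 18.4, 11.9, 12.7 and 957 CPM in oligodendrocytes. Its log2 fold change was -3.45 with library 36 (adjusted p = 0.0501) and 1.22 without it (adjusted p = 0.0183), so its direction turned on that library.

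Groups that did not overlap were counted over all members with any count. Of 84 members, 42 were higher in every sorted neuron than in every sorted oligodendrocyte library, and 48 without library 36, while 0 were lower in either case. Among all genes the shares higher were 18.7% and 20.4%, and the shares lower were 5.12% and 13.2%. Without library 36, the 48 were 22 of 37 for complex I, 1 of 4 for complex II, 8 of 9 for complex III, 8 of 17 for complex IV and 9 of 17 for complex V. Within sexes the median log2 fold change of the members was 0.85 in males (all genes, 0.0148), where 10 members and 13.8% of all genes were higher. It was 1.46 in females (all genes, 0.49), where 0 members and 0.0681% of all genes were higher and library 36 was 1 of the 2 oligodendrocyte libraries.

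**Figure D3:**
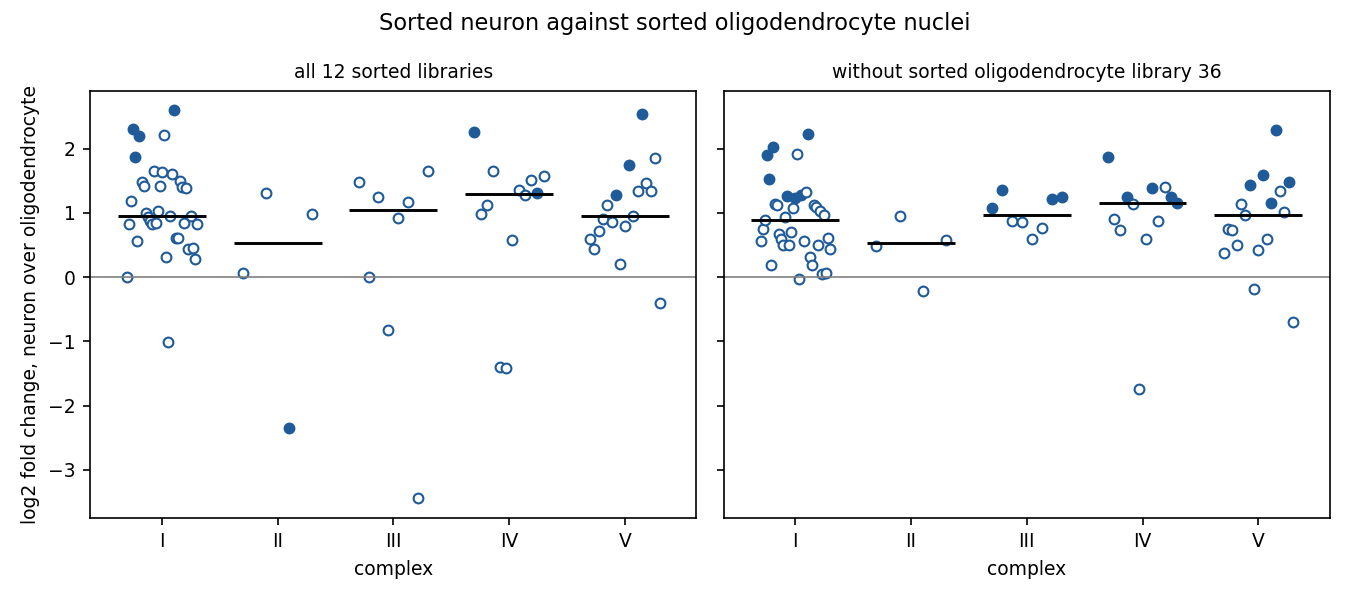
Log2 fold change of each tested member between sorted neuron and sorted oligodendrocyte nuclei, by complex, on all 12 sorted libraries (left) and without library 36 (right); filled points passed an adjusted p of 0.05 and black lines are medians. On the left 9 members pass above 0 and Sdhc below; on the right 21 pass above 0 and 0 below.

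Other members did not pass the test between these cell types. Atp5b had 483, 486, 493 and 558 CPM in sorted neurons and 257, 189, 304 and 329 CPM in sorted oligodendrocytes, with no overlap, yet its log2 fold change of 0.44 after normalisation did not pass (edgeR adjusted p = 0.452), nor did its 0.75 ± 0.32 without library 36 (adjusted p = 0.0763). Sdha had 148, 144, 234 and 272 CPM in sorted neurons and 111, 85.3, 159 and 186 CPM in sorted oligodendrocytes, and the groups overlapped (log2 fold change 0.07, edgeR adjusted p = 0.927; 0.49 ± 0.30 and 0.217 without library 36). Of 14 members listed as core subunits, Sdhc alone passed with all libraries and Cyc1 alone without library 36 (log2 fold change 1.07 ± 0.32, edgeR adjusted p = 0.0138). Sdhb, the iron-sulfur subunit of complex II, had 9.13 to 20.9 CPM in neurons and 0 to 6.82 CPM in oligodendrocytes, with no overlap, and did not pass (log2 fold change 1.31 ± 0.70, adjusted p = 0.202; 0.96 ± 0.48 and 0.135 without library 36). Cox7a2l, known for its part in joining complexes III and IV into supercomplexes, had 77.2 to 127 CPM in neurons and 0 to 57.6 CPM in oligodendrocytes, and also missed the threshold (adjusted p = 0.247, and 0.0763 without library 36).

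Few members differed between astrocytes and oligodendrocytes. Between sorted astrocyte and sorted oligodendrocyte nuclei, 1 of 76 members was higher and 1 lower in astrocytes, against 9.62% and 7.49% of all genes. The median log2 fold change was 0.65 for the members and 0.11 for all genes. Without library 36, 3 members were higher (14.6% of all genes) and 0 lower, with medians of 0.52 and -0.05. Ndufc2 had 22.6, 64.8, 44.7 and 41.7 CPM in sorted astrocyte replicates 6, 8, 30 and 32, all above the oligodendrocyte values. Its log2 fold change over oligodendrocytes was 2.60 ± 0.68 (edgeR adjusted p = 0.0122), and 2.24 ± 0.39 without library 36 (adjusted p = 0.000255). The call missed the threshold when sorted astrocyte replicate 8 was left out (adjusted p = 0.0505). Cox4i1, with 56.3, 148, 104 and 125 CPM in astrocytes, and Ndufa8, an accessory subunit of complex I, passed only without library 36. The call of Uqcrh as lower in astrocytes (log2 fold change -3.74, adjusted p = 0.049) turned to 0.99 without library 36 (adjusted p = 0.0735). Over all members with counts and without library 36, 4 of 83 were higher in every astrocyte library, a smaller share than the 12.4% of all genes.

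Sorted neuron and sorted astrocyte nuclei were not told apart by any single member. None of 76 passed in either direction by edgeR, while 19.4% of all 13029 genes did; 1 member had an unadjusted p under 0.05, and DESeq2 called 0 of 71. The median log2 fold change was 0.42 against 0.05 for all genes, and 64 of 76 members had a value above 0. Of 84 members with counts, 11 were higher in every neuron than in every astrocyte library, or 13.1%, below the 15.3% of all genes. These 11 included Cox4i1 and Atp5b, the latter with 136, 420, 298 and 340 CPM in astrocytes. Cox6b2 was the member with the unadjusted p under 0.05. It had 3.77, 0.418, 0 and 3.81 CPM in sorted neurons and 12.8, 7.42, 0 and 14.8 CPM in sorted astrocytes, where the 0 came from the shallow library 30. Its log2 fold change was -2.51 ± 1.08 (edgeR adjusted p = 0.128), and -2.55 ± 0.89 without oligodendrocyte library 36, which enters the shared fit (adjusted p = 0.0312). Within sexes the median of the members was 0.36 in males and 0.41 in females.

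Among 13 regulators of respiratory genes, 3 (23.1%) passed between neurons and astrocytes, near the 19.4% of all genes. Ppargc1a and Nrf1 were lower and Ppargc1b higher in sorted neuron than in sorted astrocyte nuclei. Ppargc1a, which encodes the coactivator PGC-1alpha, averaged 65.1 ± 22.6 CPM (SD, n = 4) in sorted neurons, 305 ± 65.7 in sorted astrocytes and 14.1 ± 11.8 in sorted oligodendrocytes (18.1 ± 10.5, n = 3, without library 36). Its log2 fold change was -2.43 ± 0.53 between neurons and astrocytes (edgeR adjusted p = 0.00365) and 4.32 ± 0.59 between astrocytes and oligodendrocytes (adjusted p = 6.67e-05; 4.01 ± 0.41 without library 36). Its relative Ppargc1b averaged 58.4 ± 20.8 CPM (SD, n = 4) in sorted neurons, 7.80 ± 6.98 in sorted astrocytes and 4.31 ± 3.10 in sorted oligodendrocytes (5.75 ± 1.43, n = 3, without library 36). The order of Ppargc1a (astrocyte, neuron, oligodendrocyte) thus differed from that of the members' share. Of the assembly factors tested between neurons and oligodendrocytes, 0 of 12 for complex I, 0 of 3 for complex II and 0 of 19 for complex IV passed by edgeR (3 of 19 for complex IV, all higher in neurons, without library 36). For complex III, 2 of 6 passed, Ttc19 and Uqcc2, both higher in neurons with and without that library. Among all genes, 10.7% were higher and 12.4% lower in neurons, and 16.7% were higher without library 36. These lists are small, and their difference from all genes was not tested. Atpif1, which encodes the inhibitor of complex V, was higher in neurons than in oligodendrocytes (log2 fold change 2.40 ± 0.76, adjusted p = 0.0313; 2.05 ± 0.56 without library 36).

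Sorting was then compared with presort nuclei within each line, with presort nuclei as the control. In the neuron line 0 of 68 tested members passed in either direction by edgeR, against 6.37% of 11024 genes. DESeq2 also called 0, and 4 members, Ndufc2, Ndufv2, Cox4i1 and Cox7c, had an unadjusted p under 0.05, all with values above 0. Some genes meet an unadjusted cut even where none differ, so these 4 are not calls. Of 83 members with counts, 5 were higher in every sorted than in every presort neuron library (all genes, 4.35%). The median log2 fold change was 0.38 for the members and 0.07 for all genes.

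In the astrocyte line 1 of 65 members was higher, against 13.7% of 11026 genes. This was Ndufc2, at 22.6, 64.8, 44.7 and 41.7 CPM sorted and 0, 34.7, 19.5 and 25.2 CPM presort, and the groups overlapped (log2 fold change 1.28 ± 0.47, edgeR adjusted p = 0.0483). The call was lost with sex as a covariate (adjusted p = 0.0623) and without presort replicate 5 or 31 (adjusted p = 0.0879 and 0.0632). The median of the members was 0.03 in that line.

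In the oligodendrocyte line most members had values below 0. None of 51 passed by edgeR, against 8.35% of all genes, DESeq2 called 0 of 46, 2 had an unadjusted p under 0.05, and the median log2 fold change was -0.48 (all genes, -0.07). Of 82 members with counts, 15 were lower in every sorted than in every presort library (all genes, 12.8%), and 17 without library 36 (all genes, 14%). Without library 36 only 22 members passed the filter, and 1, Atp5g1, was lower, against 16.8% of all genes. Its presort levels were 159, 123, 192 and 127 CPM in replicates 9, 11, 33 and 35, all above the 39.1 to 73.3 CPM of the sorted libraries. The log2 fold change was -0.84 ± 0.48 with library 36 (edgeR adjusted p = 0.334) and -1.11 ± 0.32 without it (adjusted p = 0.0164).

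The difference among the lines was tested itself. The effect of sorting did not differ among the 3 lines for any of 69 members at an adjusted p of 0.05 in edgeR, where 24.5% of 12171 genes passed. Uqcrh, Ndufc2, Sdhc and Cox4i1 had an unadjusted p under 0.05, and DESeq2 called 3 members and 30.1% of all genes. Without library 36, 2 of 47 tested members passed, against 40.9% of 8285 genes. These were Ndufc2 (edgeR adjusted p = 0.017) and Cox4i1 (adjusted p = 0.0462), whose sorted-to-presort log2 difference was lower in the oligodendrocyte than in the neuron line by 1.64 and 1.72. Presort nuclei of the 3 lines were also compared. None of 28 members passed, and 0% of 6049 genes did; 205 genes and 0 members had an unadjusted p under 0.05, and DESeq2 called 0 members.

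Cytoplasmic RNA was richer than presort nuclear RNA in members of all 5 complexes. In the fit with the filter on low counts, 57 of 58 members were higher (all genes, 29.8%), but a gene at 0 in the shallow nuclear libraries could pass that filter through the cytoplasm alone. With no filter, 77 of 84 members with counts were higher and 0 lower, against 21.5% of 19532 genes higher. Of the 28 members that passed the filter on the presort libraries alone, 27 were higher, against 26.9% of 6049 genes. With no filter the median log2 fold change was 3.04 for the members and 0.04 for all genes. Of 84 members, 48 were higher in both cytoplasmic libraries than in all 12 presort libraries (all genes, 6.47%).

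By complex, the median log2 fold change without a filter was 3.09 for complex I, 2.02 for complex II, 3.04 for complex III, 3.18 for complex IV and 3.23 for complex V. The 83 ribosomal protein genes had a median of 3.02, the 39 proteasome genes 2.01 and the 13 mitochondrially encoded subunits 5.26. All 16 glycolytic genes and 14 of 16 tricarboxylic acid cycle genes on fixed lists were also higher, with medians of 2.39 and 1.61. The 7 members with counts that did not pass were Ndufs1, Ndufa4l2, Cox4i2, Cox6b2, Cox7a1, Cox7b2 and Atp5s, and 5 of them are the minor isoforms with few counts described above.

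**Figure D4:**
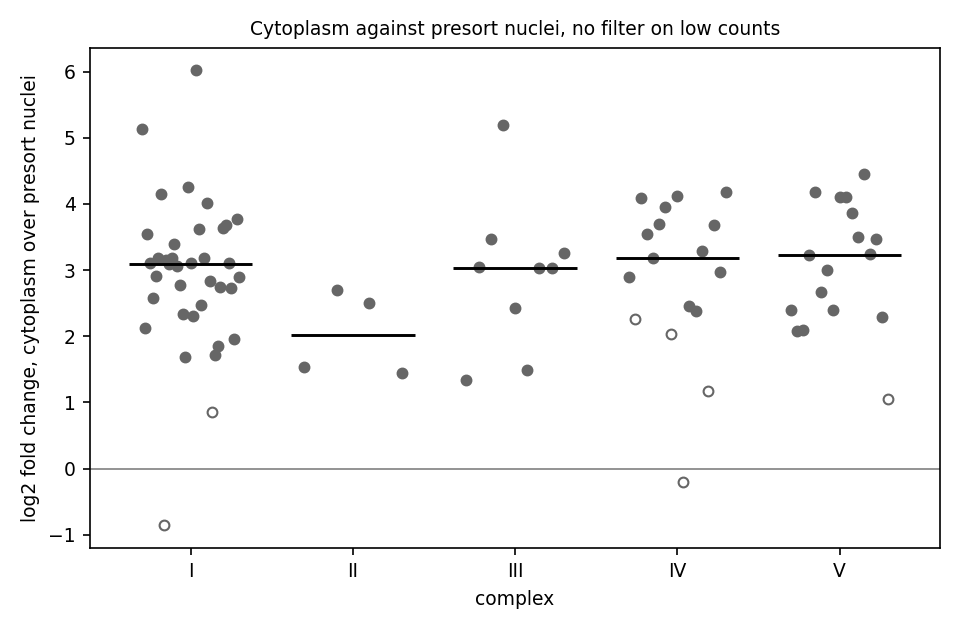
Log2 fold change of each member with counts between cytoplasmic and presort nuclear RNA, by complex, with no filter on low counts; filled points passed an adjusted p of 0.05 and black lines are medians. Of 84 members, 77 pass, all above 0, and the complex II median of 2.02 is the lowest of the 5.

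The fold changes that follow are from the fit with no filter. Ndufb6, an accessory subunit of complex I, had 108 and 78.8 CPM in cytoplasmic replicates 1 and 2, and 0 to 8.67 CPM with a median of 0 in the presort libraries, a log2 fold change of 6.02 ± 0.54 (edgeR adjusted p = 1.91e-08). It rests on 18 counts in the presort libraries, 9 of which had 0. In Ndufb6, 39% of exon bases overlap Smim27 on the other strand. Ndufb3, also of complex I, had 92.8 and 42.5 CPM in cytoplasm and 0 to 18.2 CPM in presort nuclei. Ndufa4 had 72.8 and 93.9 CPM in cytoplasm, and 0 to 12.8 CPM with a median of 7.81 in presort nuclei (log2 fold change 4.15 ± 0.40). Neither gene's groups overlapped.

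Of complex IV, Cox5a had 86.1 and 107 CPM in cytoplasm, and 0 to 16.3 CPM with a median of 10.3 in presort nuclei (log2 fold change 4.09 ± 0.43). Cox6c, a small regulatory subunit, had 196 and 298 CPM against 6.76 to 70.1 CPM. Cox4i1 had 170 and 923 CPM in cytoplasm and 13.5 to 189 CPM in presort nuclei, so cytoplasmic replicate 1 lay within the nuclear range. Cox8a behaved likewise, with 86.5 and 663 CPM in cytoplasm and 27.1 to 139 CPM in presort nuclei.

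Of complex V, Atp5g3 had 277 and 152 CPM in cytoplasm and 8.39 to 31.9 CPM in presort nuclei (log2 fold change 4.11 ± 0.30). Atp5h had 398 and 621 CPM in cytoplasm and 3.78 to 115 CPM in presort nuclei. The beta, alpha and gamma subunits also rose, with smaller fold changes. Atp5b had 1012 and 979 CPM in cytoplasm, and 196 to 564 CPM with a median of 423 in presort nuclei (log2 fold change 2.08 ± 0.26). Atp5a1 had 649 and 742 CPM in cytoplasm and 101 to 291 CPM in presort nuclei (log2 fold change 2.40 ± 0.27), and Atp5c1, the gamma subunit, had a log2 fold change of 2.10 ± 0.32.

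Among core subunits of complexes I, II and III, Ndufs1, the largest subunit of complex I, had 59.2 and 22.4 CPM in cytoplasm, and 3.19 to 64.2 CPM with a median of 45.8 in presort nuclei. It did not pass (log2 fold change 0.86 ± 0.49, edgeR adjusted p = 0.181). In the fit with the filter it did not pass either (0.68 ± 0.49, adjusted p = 0.257) but passed without cytoplasmic replicate 2 (1.26, adjusted p = 0.0334), while its value without cytoplasmic replicate 1 was -0.48 (adjusted p = 0.525). Sdha had 400 and 142 CPM in cytoplasm and 126 to 232 CPM in presort nuclei (1.53 ± 0.31), and its call in the filtered fit was lost without cytoplasmic replicate 1 (0.12, adjusted p = 0.815). Cyc1, cytochrome c1 of complex III, had 46.4 and 134 CPM in cytoplasm and 26.5 to 78.0 CPM in presort nuclei (1.34 ± 0.35). Uqcrfs1, the Rieske iron-sulfur subunit of complex III, had 168 and 88.3 CPM in cytoplasm, above its 4.19 to 47.8 CPM in presort nuclei.

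The 2 cytoplasmic libraries differed in line, sex and level, which cannot be told apart. The members' summed share was higher in replicate 2 (1.79% against 0.861%), whereas the mitochondrially encoded subunits were higher in replicate 1 (5.89% against 0.517%). Without replicate 2, 49 of 59 tested members were higher with a median log2 fold change of 2.03 (27.7% of all genes higher), and without replicate 1, 70 of 74 were higher with a median of 3.25 (24.8%). Of members that passed the filter on the presort libraries alone, Ndufv1 (0.59) and Cyc1 (0.40), both core subunits, lost their calls without replicate 2, as did Cox8a (0.92) and Uqcr10 (0.30). Their adjusted p values in edgeR then ran from 0.0934 for Cox8a to 0.643 for Uqcr10. The calls for Atp5h and Cox4i1, which also passed on the presort libraries alone, held without either library.

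Over the 77 members with at least 100 counts, the log2 fold change between cytoplasm and presort nuclei had a Pearson correlation of -0.36 with log10 gene length and of -0.47 with log10 exon length. This is a description across genes that share libraries, not a test. The members were short, with a median gene length of 7206 bases against 21722.5 for all protein-coding genes with counts.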

How the data were processed

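RNA from sorted nuclei, presort nuclei and cytoplasm was sequenced as 26 libraries, prepared per the labels' protocols with Trizol, DNase and the NuGEN Ovation RNA-seq V2 kit. The deposited values are raw counts per Ensembl gene, made by the authors. The submitters' processing notes name Bowtie2, STAR, Trimmomatic, bedtools and edgeR. Their versions and roles, the genome build and the treatment of strand and of reads with several matches are not stated in the labels or files read. Symbols, coordinates and lengths came from GENCODE annotation of GRCm38, which held 26495 of the identifiers and not 1006 of them. Promoters came from RefSeq, GRCm38.p6.

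Groups were taken from the labels. Counts were tested with edgeR 4.0.16 (R 4.3.3): TMM scaling, filterByExpr with a minimum count of 10, the quasi-likelihood F test and Benjamini-Hochberg adjustment over all genes tested, at 0.05. The 12 sorted libraries shared 1 fit. Counts of members at an unadjusted p under 0.05 are not calls, and most are given without the share of all genes. CPM are counts scaled to the library total, with no pseudocount. At 3 counts the floor ran from 0.672 to 22.3 CPM per library, which covers counting error alone. The procedure was tested on simulated data. Alternatives were DESeq2 1.42.0, other size factors, no filter, single sexes, sex as a covariate, all nuclear libraries in 1 fit and each library left out.

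The members and gene lists were chosen with earlier results of these data known. Genes were named by a rule: in each comparison up to 6 called members per direction with the largest fold change, the isoform families, the core subunits, and the 2 members of each of the 5 complexes with the highest level per kb. Ndufv2, Cox7c and members listed in small counts were named after their values were seen. The replicate libraries of each group differed by more than sampling noise. Results for 1 member are not reported here.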

Additional observations from a re-analysis of the deposited data

Results flagged for a closer look

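In 13 of 120 groups of 4 libraries, 1 library lay far from the other 3 by Dixon's test on the gap over the range. Chance alone flags about 1 in 20 groups, but this rate does not hold where 3 libraries have 0 counts. Sorted oligodendrocyte library 36 accounted for 4: its complex II share of counts was 0.0599% (next highest 0.022%), its complex III share 0.115% (0.0181%), Uqcrh stood at 957 CPM (18.4) and Sdhc at 413 CPM (48.6). The same library had no GFP count, and the part of either in the other was not tested.

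In the presort oligodendrocyte group, replicate 9 had a complex III share of 0.0357% (next 0.0258%), replicate 11 had Cox8a at 131 CPM (59.2), and replicate 35 had the lowest Atp5b at 341 CPM (next lowest 446). Sorted neuron replicate 28 had Atp5b at 558 CPM, above the next library at 493. Presort astrocyte replicate 29, at 3274488 counts the deepest of the presort libraries, had Sdha at 182 CPM (next 134), Atp5k at 2.44 CPM and Cox6b2 at 4.89 CPM, where the other 3 libraries of that group had 0 counts of both Atp5k and Cox6b2. In the presort neuron group, replicate 1 had Cox6b2 at 20.4 CPM (6 counts), with 0 in the others. Replicate 25 had Ndufb6 at 3.78 CPM, with 0 in the others. This is 1 count, under the 11.3 CPM that 3 counts equal there. Any count against 3 libraries at 0 meets the test, so the flags of Ndufb6, Atp5k and Cox6b2 by themselves show no difference. In the other 3 presort astrocyte libraries, 3 counts equal 12.6 to 20.3 CPM, above the flagged levels of Atp5k and Cox6b2 in replicate 29.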

How the results depend on the processing

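Members higher in neurons than in oligodendrocytes numbered 24 by DESeq2 (18.4% of all genes higher) and 0 in females alone (0.0681%). They numbered 18 with all 24 nuclear libraries in 1 fit and 24 without libraries 30 and 36 (an alternative chosen after seeing the data). Members lower numbered 2 with RLE size factors, without a filter and with all 24 libraries, and 0 by DESeq2, in males alone, in females alone, with sex as a covariate and without both libraries. Between astrocytes and oligodendrocytes, members higher numbered 5 by DESeq2, 3 in males, 0 in females and 8 without both libraries. Members lower were 2 without a filter and with all 24 libraries, and 0 by DESeq2, in each sex alone, with sex as a covariate and without both libraries. Between neurons and astrocytes, 1 member was higher in males, 1 was lower without both libraries, and 4 were higher and 1 lower in females without library 36 (also chosen after seeing the data). Sorted against presort, the neuron line gave 1 member higher without a filter and 1 in females. The astrocyte line gave 2 without a filter and 0 in females, with sex as a covariate and with all 24 libraries, and its median was -0.0383 in females. The oligodendrocyte line gave 2 higher without a filter, 1 lower in males, and 2 higher and 1 lower with all 24 libraries. The interaction gave 1 member with RLE factors, 1 without a filter, 3 by DESeq2 (30.1% of all genes) and 2 without library 36 (40.9%). The last setting was added after seeing the data, and fewer genes are tested there. For these settings the cause was not tested. The share of all genes called also changes with the setting and is given here for only some of them. These counts alone therefore do not show a change in the members.

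Leaving out each library in turn, members higher and lower were 0 to 0 and 0 to 1 between neurons and astrocytes (median 0.27 to 0.60), 2 to 21 and 0 to 2 between neurons and oligodendrocytes (0.91 to 1.25), and 0 to 3 and 0 to 2 between astrocytes and oligodendrocytes (0.50 to 0.76). They were 0 and 0 in the neuron line (0.27 to 0.47), 0 to 2 and 0 to 1 in the astrocyte line (-0.00194 to 0.23), and 0 and 0 to 1 in the oligodendrocyte line (-0.80 to -0.44). For cytoplasm the median ran from 2.03 to 3.25, and both ends came from fits with 1 cytoplasmic library. The 2 between neurons and oligodendrocytes came without sorted oligodendrocyte replicate 12 or sorted neuron replicate 28. Cytoplasm gave 27 of 28 members higher among genes that passed the filter on presort libraries alone (chosen after seeing the data), where fewer genes are tested. Without each library in turn, Uqcrh ran from -4.14 to 1.22 between neurons and oligodendrocytes and from -4.42 to 0.99 between astrocytes and oligodendrocytes. Uqcrh reversed to 1.22 against neurons without library 36 and without both libraries, and to 0.99, 1.09 and 1.10 between astrocytes and oligodendrocytes without library 36, in males and without both. Sdhc reversed to 0.0107 in males. No paired analysis was run, because the labels give sorted and presort groups no replicate number in common. Their numbers alternate within each line, but no label says that neighbouring numbers share a mouse. The tests of sorted against presort nuclei therefore take no account of any pairing. The depth of most presort libraries, where 3 counts equal 9.56 to 20.3 CPM, limits what low members can show.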
